A study of Mus musculus with 13 samples.

Results

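Cloned mouse embryos were set against the somatic cell type that donated their nuclei, gene by gene. The embryos came from somatic cell nuclear transfer (SCNT), in which the nucleus of an oocyte is replaced by that of a single body cell, here a cumulus cell from the layers that surround the oocyte in the follicle. Of the 13 arrays of the series, the comparison uses 5, namely 3 arrays of SCNT Aph- embryos and 2 of cumulus cells, chosen by their labels and not by any measured value. Aph stands for aphidicolin, an inhibitor of DNA replication, and Aph- means that it was not added, neither to these embryos nor to the cumulus cells. The labels name B6C3F1 for the cumulus cells and oocytes, whereas the study's text names enucleated C3H/HeN oocytes that received single nuclei of C57Bl/6J cumulus cells. The labels call the 3 SCNT arrays untimed (replicate 1), 96 h (replicate 2) and blastocyst (replicate 3), while the text collects embryos at 96 h after activation whatever stage they had reached. Each array held RNA from pooled cells or embryos, and nothing in the sources says that the pools came from separate cultures, and the p-values therefore reflect no more than how these pools differ. Also shown are 3 arrays of fertilized Aph- embryos (in vitro fertilization in the labels, sperm injection in the text) and 1 of MII oocytes, which are unfertilized oocytes at the second meiotic metaphase.

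Cumulus cells are granulosa-derived somatic cells. They make progesterone from cholesterol, answer gonadotropins and, around ovulation, build a hyaluronan-rich matrix in which the oocyte is released. A blastocyst by contrast consists of a trophectoderm, the epithelium that will form placental tissue, and an inner cell mass that holds the pluripotent cells of the embryo proper and the primitive endoderm. After nuclear transfer a cumulus nucleus has to leave the first program and enter the second. The comparison asks which transcripts were lower and which higher in the embryos than in the donor cell type. RNA left from the recipient oocyte cannot be told apart on these arrays from RNA of the transplanted nucleus.

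The arrays were Illumina BeadChips, on which each transcript is read by the brightness of beads that carry its probe. A level is given below as a normalized log2 value, on which 1 unit is a doubling, and a difference is the SCNT Aph- mean minus the cumulus mean. Levels of different probes are not comparable with each other, since probes differ in brightness. Brightness before normalization averaged 313, 184 and 229 on the SCNT arrays against 145 and 465 on the cumulus arrays, and cumulus replicate 1 had 6794 detected probes where cumulus replicate 2 had 9715. Levels correlated across genes at 0.971 to 0.974 among the SCNT arrays, at 0.951 between the cumulus arrays and at 0.707 to 0.750 between an SCNT and a cumulus array. Genes are not independent replicates, so these correlations carry no test. Precision is limited throughout by the small number of arrays, and in pooled samples fewer cells of a type and less RNA per cell cannot be told apart.

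Of 9787 genes tested, 1712 (17.5%) had a higher level in SCNT Aph- embryos and 1606 (16.4%) a lower level than in cumulus cells, 3318 (33.9%) in all, in limma's moderated test at an adjusted p under 0.05 by the Benjamini-Hochberg method. The median difference over all genes was 0.03, and 5982 genes (61.1%) had SCNT and cumulus arrays that did not overlap. At least 4-fold differences were met by 660 genes higher and 754 lower, at least 16-fold differences by 134 and 161, and at least 64-fold differences by 30 and 22. Without the dimmer cumulus replicate 1 the fit called 1137 genes higher and 1280 lower, and without cumulus replicate 2 it called 1343 and 1337. No gene called in either direction was called in the opposite one when any 1 of the 5 arrays was left out.

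**Figure D1:**
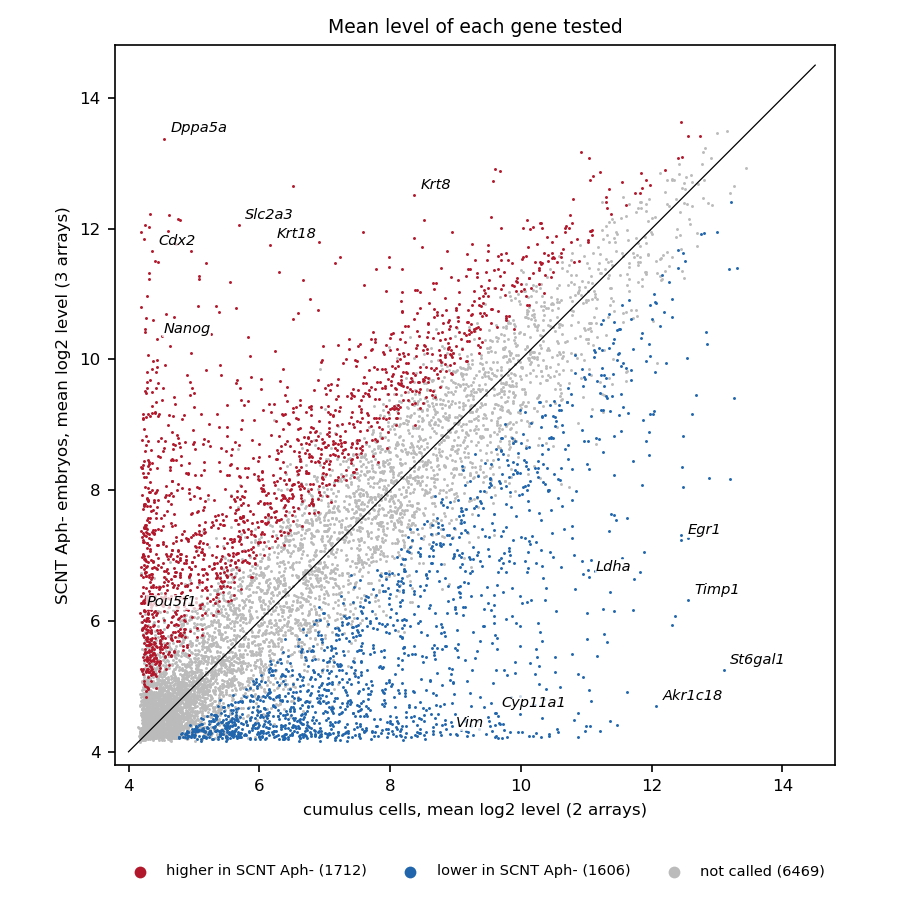
Mean normalized log2 level of each of the 9787 genes in SCNT Aph- embryos (vertical axis, 3 arrays) and in cumulus cells (horizontal axis, 2 arrays), with the line of equal level. The 1712 red genes were higher and the 1606 blue genes lower in SCNT Aph- embryos, and many of them lie along the floor of detection of the other group.

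Detection gave a second reading of the same arrays. A probe counts as detected when the chip's software gave it a detection p-value under 0.01, which ranks its brightness among control beads without a target. By this measure 472 genes (4.82%) were detected on all 3 SCNT arrays and by no probe on either cumulus array, 514 (5.25%) on both cumulus arrays and by no probe on an SCNT array, and 4183 on all 5. These counts depended on which cumulus arrays were used. The first became 1232 without cumulus replicate 2 and the second 1239 without cumulus replicate 1, and leaving out an SCNT array or the other cumulus array gave values down to 484 and 528. Of the 472 genes, 407 were also detected on all 3 fertilized Aph- arrays and 138 on the oocyte array. Of the 514, 345 were detected on no fertilized Aph- array and 193 on the oocyte array.

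Genes of pluripotency, the capacity to form every tissue of the body, were mostly higher in the cloned embryos. Of 28 measured members of a list of such genes, 21 were higher in SCNT Aph- embryos (19 to 21 with any 1 array left out) and 1 was lower, and their median difference was 2.19, or 1.59 with undetected members set at their bound, against 0.03 over all genes. Their levels summed to 32320, 28912 and 29913 on the SCNT arrays against 1478 and 1631 on the cumulus arrays, in linear units. Of the 28, 22 were detected on no cumulus array and 21 on every SCNT array. The oocyte array detected 15 of them, with a summed level of 17155.

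Dppa5a, an RNA-binding protein of pluripotent cells, showed the largest positive difference among all genes that met the naming rule. Its levels were 13.47, 13.28 and 13.37 in SCNT Aph- embryos against 4.60 and 4.49 in cumulus cells, a difference of 8.83 (SE 0.28, limma adjusted p = 1.17e-07). As no cumulus array detected Dppa5a, its fold has only a lower bound, taken against the dimmest detected signal of those arrays, and was at least 295-fold. Nanog, a homeobox factor that maintains the pluripotent state, had levels of 10.25, 10.38 and 10.30 against 4.55 and 4.32 in cumulus cells, at least 35.2-fold higher (difference 5.87, SE 0.98, limma adjusted p = 0.00137). Pou5f1, which encodes Oct4, the factor around which the pluripotency network is built, stood at 6.10, 5.92 and 6.36 against 4.16 and 4.19 in cumulus cells, at least 1.94-fold higher (difference 1.95, limma adjusted p = 0.000472). For all of these genes the arrays of the groups did not overlap.

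Sall4, a zinc-finger partner of Oct4, followed with levels of 11.66, 11.69 and 11.61 in SCNT Aph- embryos against 5.56 and 4.35 in cumulus cells, at least 89.4-fold higher. Dppa4, a chromatin protein, reached at least 102-fold and Dnmt3l, a cofactor of DNA methylation in germ cells and early embryos, at least 96.2-fold. The transposon-derived L1td1 was at least 43.4-fold higher, Klf5 at least 28.1-fold, the nuclear receptor Esrrb at least 12.1-fold and the T-box factor Tbx3 at least 11.5-fold. Sox2, the usual partner of Oct4 on DNA, was not detected on any SCNT or cumulus array by its probe, with levels of 4.45, 4.27 and 4.23 against 4.33 and 4.22 in cumulus cells. Klf4 was detected in both, with levels of 8.11, 7.95 and 8.23 in SCNT Aph- embryos against 6.35 and 7.21 in cumulus cells (difference 1.32, limma adjusted p = 0.0138), and its call was lost without cumulus replicate 1 (difference 0.88). The only member called lower was Klf2, with levels of 5.87, 4.86 and 5.90 against 7.69 and 6.88 in cumulus cells (difference -1.74, limma adjusted p = 0.0334). Its call was lost without SCNT replicate 2 (-1.40), cumulus replicate 1 (-1.33) or cumulus replicate 2 (-2.15).

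Transcription factors of the trophectoderm were mostly higher as well. Of 16 measured, 12 were higher (10 to 12 with any 1 array left out) and none lower, with a median difference of 3.05, or 2.39 at the bounds. All 16 were detected on at least 1 SCNT array, 11 on no cumulus array and 3 on the oocyte array. Their levels summed to 13590 to 17965 on the SCNT arrays, 1392.5 and 1688.4 on the cumulus arrays and 13430 on the oocyte array. Such a sum rests mainly on the brightest probes, so it does not tell how many members a sample holds. Cdx2, the homeobox factor that defines the trophectoderm, had levels of 12.03, 11.53 and 11.42 in SCNT Aph- embryos against 4.43 and 4.30 in cumulus cells, at least 89.9-fold higher (difference 7.29, SE 0.56, limma adjusted p = 1.50e-05). Tfap2c, an AP-2 factor that acts upstream of it, was at least 132-fold higher and Tead4, the DNA-binding partner of the Hippo effector YAP, at least 55.7-fold. The T-box factor Eomes had levels of 9.11, 8.22 and 7.81 against 4.24 and 4.22 in cumulus cells, at least 9.26-fold higher, SCNT replicate 1 being the highest. Gata2 was at least 17.4-fold higher, Gata3 at least 9.05-fold and Ovol2, a repressor of mesenchymal genes, at least 8.57-fold. Yap1 (difference 0.07), Id2 (0.00) and Ets2 (-0.55), which were detected on all 5 arrays, were not called.

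Genes of the epithelium itself were examined next. Of 40 measured genes of embryonic epithelium, 26 were higher (23 to 26 with any 1 array left out) and 2 lower, with a median difference of 2.50, or 1.82 at the bounds. Krt8 and Krt18 encode the paired keratins of simple epithelia. Krt18 levels were 11.69, 11.59 and 11.997 in SCNT Aph- embryos against 5.87 and 6.46 in cumulus cells (difference 5.59, SE 0.61, limma adjusted p = 0.000117). Krt8 was high in both but still apart, at 12.64, 12.44 and 12.46 against 8.06 and 8.69 in cumulus cells (difference 4.14, limma adjusted p = 4.99e-05). The tight-junction protein Cldn4 was at least 44.0-fold higher, and the adherens-junction cadherin Cdh1 differed by 3.88. The lipid-binding protein Fabp3 was at least 115-fold higher and Timd2, a ferritin receptor, at least 110-fold. The glucose transporter Slc2a3 had levels of 12.22, 11.86 and 12.09 against 5.60 and 5.77 in cumulus cells, a difference of 6.37. The 2 lower members were the membrane linker Ezr (-2.28) and the keratin Krt23 (at least 7.21-fold lower), the second of which was not called without cumulus replicate 1 (difference -2.34).

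**Figure D2:**
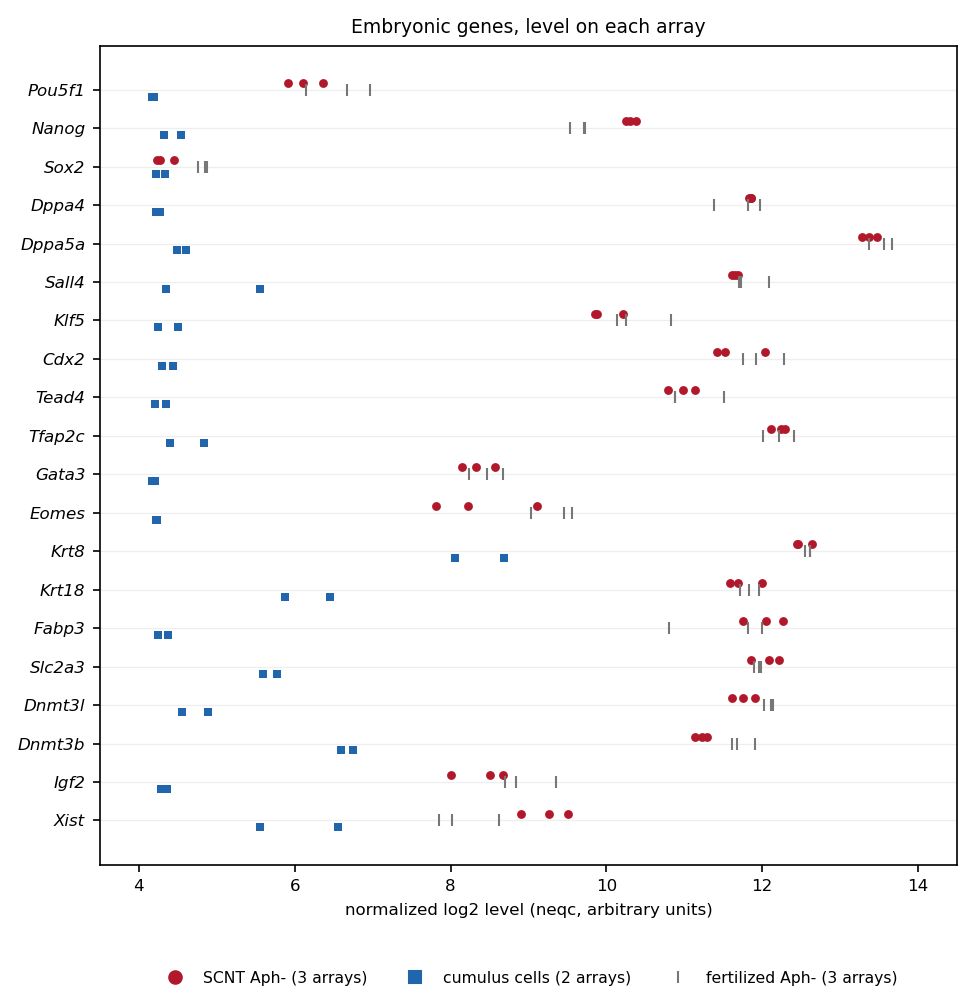
Normalized log2 level (horizontal axis) of 20 genes of the embryo on each array of SCNT Aph- embryos (red circles, 3), cumulus cells (blue squares, 2) and fertilized Aph- embryos (grey ticks, 3). For every gene except Sox2 the 3 SCNT Aph- arrays lie above both cumulus arrays.

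The proximal promoters of 4 called genes are printed with their matches to short motifs read by factors measured on these arrays. Binding to these windows was not tested. Each window runs from 250 bases before to 50 bases after the RefSeq transcription start, on the gene's own strand in build GRCm38.p6, and capitals mark a match to the octamer ATGCAAAT read by Oct4, to GCCNNNGGC read by AP-2 factors such as Tfap2c, or to TGANTCA read by AP-1, the dimer of Fos and Jun proteins. The genes were chosen after their matches were seen, on either strand, and a match describes the letters only. Among 32851 windows of this length, 1.74% hold the octamer, 16.6% the AP-2 motif and 7.81% the AP-1 motif. Cdx2 (chr5:147307200-147307499, minus strand) holds the octamer and an AP-2 match, Elf3 (chr1:135258423-135258722, minus strand), an epithelial ETS factor with a difference of 5.95, holds the octamer, and Krt18 (chr15:102027966-102028265, plus strand) holds an AP-2 match. Col6a1 (chr10:76725995-76726294, minus strand), a collagen chain with a difference of -5.20, holds an AP-1 match.
Cdx2: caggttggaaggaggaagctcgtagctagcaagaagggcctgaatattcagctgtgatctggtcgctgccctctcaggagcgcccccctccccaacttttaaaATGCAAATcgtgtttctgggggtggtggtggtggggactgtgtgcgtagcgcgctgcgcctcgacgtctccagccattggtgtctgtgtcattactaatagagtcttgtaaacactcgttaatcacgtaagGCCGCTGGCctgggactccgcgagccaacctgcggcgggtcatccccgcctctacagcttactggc
Elf3: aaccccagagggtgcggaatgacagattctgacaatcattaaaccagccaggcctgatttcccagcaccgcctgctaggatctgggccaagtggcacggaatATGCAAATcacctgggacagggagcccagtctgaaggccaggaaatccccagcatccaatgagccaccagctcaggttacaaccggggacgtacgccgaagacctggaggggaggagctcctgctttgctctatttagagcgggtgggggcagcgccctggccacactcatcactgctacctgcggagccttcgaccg
Krt18: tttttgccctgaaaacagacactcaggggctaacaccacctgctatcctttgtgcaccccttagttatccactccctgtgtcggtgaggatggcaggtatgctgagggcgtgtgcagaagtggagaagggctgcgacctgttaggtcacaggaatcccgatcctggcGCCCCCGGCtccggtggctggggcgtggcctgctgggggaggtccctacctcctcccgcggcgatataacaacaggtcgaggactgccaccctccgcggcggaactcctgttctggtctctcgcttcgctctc
Col6a1: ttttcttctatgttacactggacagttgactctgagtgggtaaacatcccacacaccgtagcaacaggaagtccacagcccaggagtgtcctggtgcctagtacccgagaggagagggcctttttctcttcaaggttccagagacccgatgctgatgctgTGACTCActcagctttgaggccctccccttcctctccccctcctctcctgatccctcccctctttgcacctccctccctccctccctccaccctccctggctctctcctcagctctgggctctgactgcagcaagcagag

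Of 14 measured genes of the primitive endoderm, the blastocyst's other epithelium, 2 were higher and 5 lower, with a median difference of -0.01. Over all genes 17.5% were higher and 16.4% lower. Those lower included matrix genes that cumulus cells transcribe as well, such as the laminin chain Lama1 (difference -4.37) and the collagen chain Col4a1 (-3.51). The 2 higher were Amn (difference 3.24) and Gata6. Gata6, the factor that specifies the lineage, was at 9.89, 10.19 and 10.39 in SCNT Aph- embryos against 9.11 and 8.65 in cumulus cells (difference 1.28, limma adjusted p = 0.0435), a call that was lost when any 1 array was left out (1.05 to 1.51). Sox17, which acts downstream of it, was not detected on any SCNT or cumulus array.

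Oocyte transcripts were called in the minority of cases, with a share higher that lies near the 17.5% over all genes. Their share lower lies under the 16.4% over all genes. Of 36 measured oocyte genes, 7 were higher (5 to 7 with any 1 array left out) and 3 lower (none without cumulus replicate 1), and 21 were detected on no SCNT array and 29 on no cumulus array. The summed level was 7273, 8633 and 9043 in SCNT Aph- embryos against 2281 and 1340 in cumulus cells, and 88688 on the oocyte array. The higher ones included components of the subcortical maternal complex, a protein lattice under the membrane of oocytes and early embryos. Khdc3 levels were 11.95, 12.25 and 12.23 in SCNT Aph- embryos against 4.89 and 4.63 in cumulus cells, at least 126-fold higher, Ooep was at least 46.1-fold higher and Padi6 at least 4.58-fold. Tle6, another component of the subcortical maternal complex, was among the 3 lower ones (difference -0.78 without cumulus replicate 1). Secreted factors and meiotic regulators of the oocyte did not pass the test, with differences of -0.14 for Gdf9, 0.35 for Bmp15 and -0.02 for the kinase Mos.

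Genes that peak as the genome of the mouse embryo is first transcribed, at the 2-cell stage, varied among the SCNT arrays. Of 21 measured, 9 were higher and none lower, with a median difference of 1.80, or 0.93 at the bounds. That count was 13 without SCNT replicate 1 and 5 without cumulus replicate 1. The summed level was 3640, 7738 and 6047 in SCNT Aph- embryos against 1105 and 962 in cumulus cells. Zscan4c, a zinc-finger gene of this stage, had a level of 8.50 on the SCNT array labelled 96 h but 4.36 and 4.29 on the others, against 4.22 and 4.29 in cumulus cells (difference 1.46, limma adjusted p = 0.337). Tcstv3 was highest on the same array, with 8.38, 10.82 and 9.30 against 4.31 and 4.40 in cumulus cells, at least 20.1-fold higher (limma adjusted p = 0.00149). Pramel7, which is linked to DNA hypomethylation in the inner cell mass, was even across arrays, with 10.30, 10.28 and 10.65 against 4.26 and 4.24 in cumulus cells, at least 37.8-fold higher.

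Enzymes and readers of DNA methylation were called in both directions. Of 13 measured, 4 were higher and 4 lower, against 17.5% higher and 16.4% lower over all genes. The lower ones were Gadd45a, Uhrf2, Apobec1 and Mbd1, and no DNA methyltransferase was among them. Dnmt3b, which methylates new sites, had levels of 11.22, 11.14 and 11.30 in SCNT Aph- embryos against 6.75 and 6.60 in cumulus cells (difference 4.55, SE 0.30, limma adjusted p = 6.15e-06), and Dppa3, which protects the maternal genome from demethylation in the zygote, was at least 11.9-fold higher. Dnmt1, which maintains methylation, was at 8.16, 7.91 and 7.92 against 9.33 and 7.72 in cumulus cells and was not called (difference -0.53, limma adjusted p = 0.356), although without cumulus replicate 2 it was (-1.34). Gadd45a, a stress gene linked to demethylation, was at least 24.1-fold lower, with levels of 4.56, 4.30 and 4.47 against 9.72 and 9.63 in cumulus cells. Among 31 histone methylation enzymes and Polycomb proteins 7 were higher (2 to 5 with any 1 array left out) and 4 lower (2 to 4), among 12 histone deacetylases 1 was higher (0 to 1) and 2 lower (0 to 2), and among 15 linker and core histones 5 were higher (1 to 4) and 2 lower (1 to 2). These counts are small, and those of histone methylation enzymes and deacetylases lie near the shares over all genes, 17.5% higher and 16.4% lower. The demethylase Kdm4b had levels of 7.65, 7.32 and 7.05 against 10.77 and 10.18 in cumulus cells, a difference of -3.13.

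Of 27 imprinted genes, which are transcribed from 1 parental copy only, 11 were higher (8 to 10 with any 1 array left out) and 4 lower (3 to 5), with a median difference of 0.34. The shares over all genes were 17.5% higher and 16.4% lower. The growth factor Igf2 was at 8.67, 8.51 and 8.003 in SCNT Aph- embryos against 4.28 and 4.36 in cumulus cells, at least 9.34-fold higher. Cdkn1c, an inhibitor of cyclin-dependent kinases, was uneven among the embryo pools, with 8.30, 10.41 and 10.58 against 4.82 and 4.98 in cumulus cells (difference 4.86, limma adjusted p = 0.000305). The amino acid transporter Slc38a4 differed by 5.34. Those lower included Nap1l5, at least 7.34-fold, and Ndn, a growth suppressor of neurons, with 6.12, 4.55 and 5.17 against 9.41 and 8.39 in cumulus cells. Xist, the RNA that coats and silences an X chromosome, had levels of 8.90, 9.26 and 9.50 in SCNT Aph- embryos against 5.56 and 6.56 in cumulus cells (difference 3.17, SE 0.35, limma adjusted p = 0.000125). Its arrays did not overlap between the groups.

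Cell division genes separated the groups almost in 1 direction. Of 47 measured DNA replication genes, 34 were higher in SCNT Aph- embryos (27 to 31 with any 1 array left out) and 1 lower (0 to 1), and of 39 mitosis genes 26 were higher (22 to 25) and none lower, with median differences of 1.73 in both lists. Cdc6, which loads the replicative helicase, was at 9.62, 9.18 and 9.55 in SCNT Aph- embryos against 4.34 and 5.55 in cumulus cells (difference 4.50, limma adjusted p = 3.48e-05). Mcm2, a subunit of that helicase, differed by 3.73, and the thymidine kinase Tk1 was at least 11.1-fold higher. Cdca3, a trigger of mitotic entry, was at 11.12, 11.43 and 10.84 against 7.80 and 7.39 in cumulus cells. The replication list summed to 30215 to 31207 on the SCNT arrays and 38512 on the oocyte array. For the mitosis list these sums were 24171 to 26781 and 37276. In a list of 23 genes of cell cycle exit, 4 were higher (2 to 4), a share close to the 17.5% over all genes, and 6 lower (4 to 6). Beside Gadd45a the lower ones included Ccng2, a cyclin of resting cells, with 5.69, 4.41 and 5.13 in SCNT Aph- embryos against 9.11 and 8.12 in cumulus cells, and Btg1, an antiproliferative factor (difference -2.23).

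Genes of growth machinery were mostly higher where they were called. Of 47 nucleolar ribosome assembly genes 22 were higher (15 to 21 with any 1 array left out) and none lower, with a median difference of 0.91. Ubtf, the activator of ribosomal RNA transcription, was at 9.73, 9.68 and 9.67 in SCNT Aph- embryos against 5.94 and 6.11 in cumulus cells, a difference of 3.67. Of 32 proteasome genes 16 were higher (12 to 14) and 1 lower, with a median of 0.89. Of 54 ribosomal protein genes 19 were higher, or 10 without SCNT replicate 2, and 1 lower, with a median of 0.51. Of 65 oxidative phosphorylation genes 24 were higher, or 9 without cumulus replicate 1, and 2 lower, with a median of 0.58. All of these medians exceed the 0.03 over all genes and the 0.13 over genes detected on at least 3 arrays. The shares over all genes were 17.5% higher and 16.4% lower. The smaller counts of ribosomal protein and oxidative phosphorylation genes lie near or under that 17.5%, in fits that called fewer genes in all.

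Genes of steroid-making cells were lower almost throughout. Of 17 measured genes of steroid synthesis and gonadotropin response, 16 were lower in SCNT Aph- embryos (14 to 15 with any 1 array left out) and none higher, with a median difference of -3.02, or -2.25 at the bounds. Their summed level was 706, 787 and 725 in SCNT Aph- embryos against 15102 and 18806 in cumulus cells. Akr1c18, which inactivates progesterone, had levels of 4.56, 5.35 and 4.19 against 11.82 and 12.33 in cumulus cells (difference -7.37, SE 0.52, limma adjusted p = 8.66e-06). Cyp11a1, the enzyme that cuts the cholesterol side chain and opens the pathway, was at 4.75, 4.37 and 4.64 against 9.66 and 9.56, at least 23.1-fold lower. Hsd3b1, which completes progesterone, was at least 6.16-fold lower and Fdx1, the electron donor of Cyp11a1, at least 4.77-fold. Star, the protein that carries cholesterol into the mitochondrion, was dim on the cumulus arrays too, at 4.29, 4.19 and 4.26 against 4.66 and 5.19 in cumulus cells (difference -0.67, limma adjusted p = 0.0278), and its call was lost without any of the 3 SCNT arrays (-0.70 to -0.65) or without cumulus replicate 2 (-0.41). The inhibin and activin subunits Inhba and Inha were at least 22.9-fold and 9.44-fold lower, and Fshr, the receptor of follicle-stimulating hormone, at least 2.97-fold. Amhr2, the receptor of anti-Müllerian hormone, was at 6.51, 6.61 and 7.07 against 7.88 and 7.99 in cumulus cells (difference -1.20, limma adjusted p = 0.0257), and its call was lost without SCNT replicate 1 (-1.09) or 2 (-1.15) or cumulus replicate 1 (-1.26) or 2 (-1.15).

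Granulosa transcription factors were lower in part. Of 14 measured, 9 were lower (8 to 9 with any 1 array left out) and 1 higher (none in any such fit), with a median difference of -1.92. Wt1, a zinc-finger factor of gonadal somatic cells, was at 4.22, 4.22 and 4.32 in SCNT Aph- embryos against 9.69 and 7.34 in cumulus cells, at least 10.8-fold lower. Esr2, the oestrogen receptor of granulosa cells, was at least 7.75-fold lower. Cebpb, which drives the ovulatory response, was at 4.55, 4.48 and 5.07 against 9.82 and 7.69 in cumulus cells (difference -4.06), and Tcf4, a basic helix-loop-helix factor, differed by -5.25. Nr5a2, a nuclear receptor that both granulosa cells and early embryos transcribe, did not pass the test, with 9.17, 8.24 and 8.84 against 8.56 and 8.28 in cumulus cells (difference 0.33, limma adjusted p = 0.510). Foxl2, a factor of ovarian identity, was detected on none of the 5 arrays.

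Genes of the matrix that cumulus cells build as they expand were lower in 11 of 12 measured cases (8 to 10 with any 1 array left out) and higher in none, with a median difference of -2.33, or -1.80 at the bounds. Ptx3, a pentraxin that cross-links hyaluronan, was at 4.21, 4.22 and 4.18 in SCNT Aph- embryos against 10.03 and 9.38 in cumulus cells, at least 24.7-fold lower. The hyaluronan synthase Has2 was at least 1.76-fold lower and Ptgs2, which makes prostaglandins, at least 2.93-fold. Timp1, an inhibitor of matrix proteases, kept a detectable level in the embryos, with 6.23, 6.65 and 6.07 against 12.41 and 12.69 in cumulus cells (difference -6.23, SE 0.50, limma adjusted p = 1.94e-05). The proteoglycan Sdc1 was at least 26.0-fold lower, whereas the related Sdc4 was at 9.55, 9.05 and 9.27 against 9.30 and 10.09 in cumulus cells and was not called (difference -0.40, limma adjusted p = 0.752).

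In the list of genes through which oocyte and cumulus cells act on each other, 10 of 15 were lower (8 to 10 with any 1 array left out) and 1 higher (0 to 1), with a median of -1.98. Receptors of the TGF-beta family led. Bmpr1b, a receptor of oocyte-made bone morphogenetic proteins, was at 4.40, 4.21 and 4.57 in SCNT Aph- embryos against 9.37 and 9.09 in cumulus cells, at least 17.8-fold lower, and Tgfbr1 differed by -5.08. Pfkp, the phosphofructokinase that oocytes induce in their cumulus cells, was at least 9.91-fold lower. Npr2, the receptor whose cyclic GMP holds the oocyte in meiosis, was at 8.68, 8.71 and 8.28 against 10.79 and 9.84 in cumulus cells (difference -1.76). The gap-junction protein Gja1 was detected on all 5 arrays, with 11.39, 11.94 and 11.89 against 12.90 and 12.48 in cumulus cells, and was not called (difference -0.95, limma adjusted p = 0.0859), although in a fit of the 5 arrays alone it was (adjusted p = 0.0363).

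**Figure D3:**
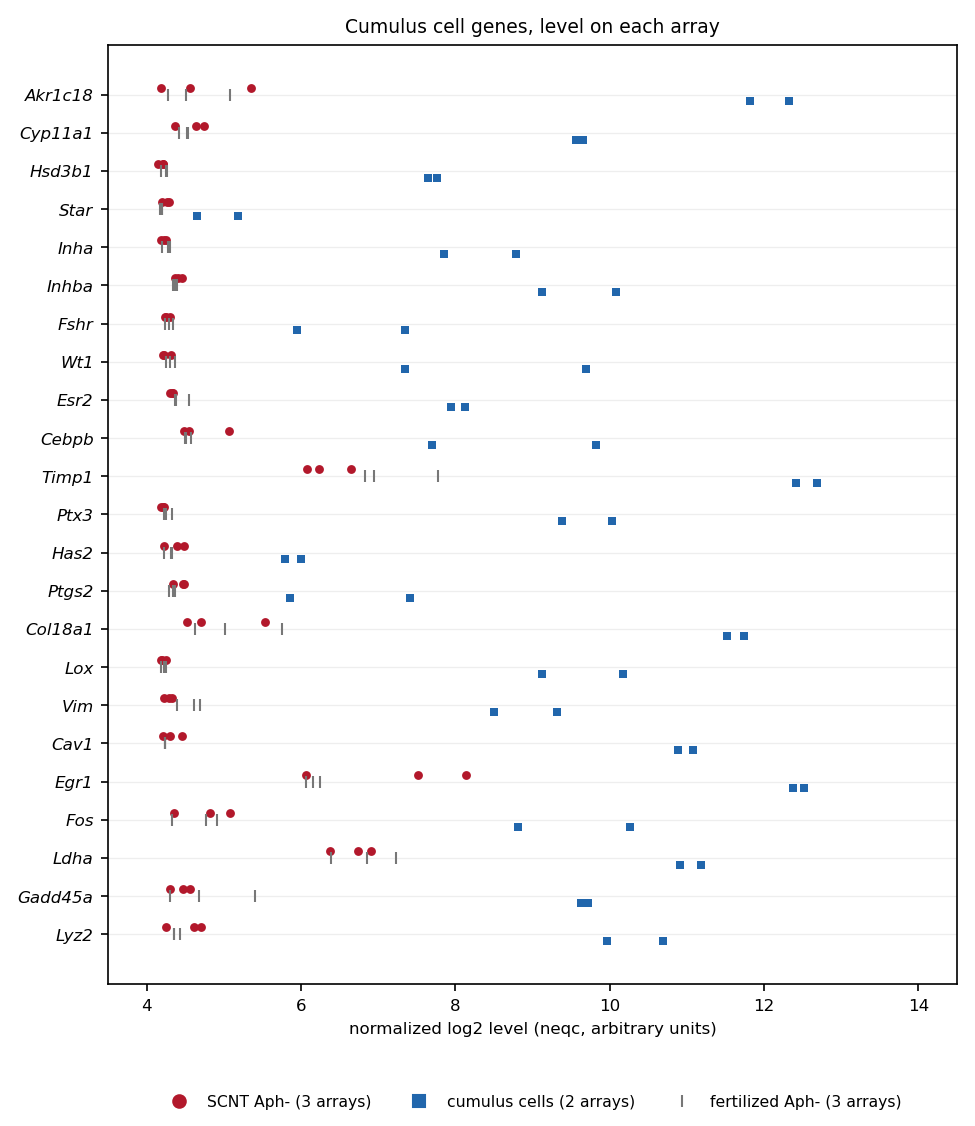
Normalized log2 level (horizontal axis) of 23 genes of cumulus cells on each array of SCNT Aph- embryos (red circles, 3), cumulus cells (blue squares, 2) and fertilized Aph- embryos (grey ticks, 3). All 3 SCNT Aph- arrays lie below both cumulus arrays for each gene, and those of Egr1 are spread from 6.06 to 8.14.

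Collagens and other extracellular matrix followed the same direction in 17 of 25 genes (15 to 18 with any 1 array left out), with 2 higher (0 to 2) and a median of -1.997. Col18a1, a collagen of basement membranes, was at 5.54, 4.52 and 4.71 in SCNT Aph- embryos against 11.52 and 11.74 in cumulus cells (difference -6.70, SE 0.62, limma adjusted p = 4.02e-05). Lox, which cross-links collagen, was at least 23.8-fold lower, the protease Mmp2 at least 21.9-fold and Col6a1, whose promoter is printed above with its AP-1 match, at least 20.9-fold. Of 21 genes of the mesenchymal cytoskeleton 8 were lower (6 to 8) and 2 higher (1 to 2), with a median of -0.21. Vim, the intermediate filament of mesenchymal cells, was at 4.22, 4.32 and 4.28 against 9.32 and 8.50 in cumulus cells, at least 14.2-fold lower, while the keratins Krt8 and Krt18 were higher. Cav1, the coat protein of caveolae, was at least 59.8-fold lower. Lmna, the lamin of differentiated nuclei, was higher, with 11.73, 11.78 and 11.75 against 10.06 and 8.94 in cumulus cells (difference 2.25, limma adjusted p = 0.00210).

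The gene with the largest negative difference by the naming rule was St6gal1, a sialyltransferase, at 4.57, 6.41 and 4.77 in SCNT Aph- embryos against 13.29 and 12.90 in cumulus cells (difference -7.85, SE 0.69, limma adjusted p = 3.21e-05). The detoxifying enzyme Mgst1 was at least 77.9-fold lower, the neurite factor Nrn1 at least 69.9-fold, and the growth factor binding proteins Igfbp7 and Igfbp4 at least 63.3-fold and 60.3-fold. On the positive side the 15 largest differences also held Fbxo15, a target of Oct4 (at least 133-fold higher), the homeobox gene Crxos (at least 110-fold), the mitochondrial creatine kinase Ckmt1 (at least 80.6-fold), the zinc transporter Slc39a4 (at least 80.2-fold), Fbp2, a gluconeogenic enzyme (at least 70.8-fold), and Wfdc2, which cumulus cells also showed (difference 7.35).

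Immediate early genes, which respond within minutes to signals and to handling, were lower in 10 of 13 cases whichever array was left out, and 1 was higher (0 to 1). Egr1 was at 8.14, 6.06 and 7.51 in SCNT Aph- embryos against 12.52 and 12.38 in cumulus cells (difference -5.21, SE 0.60, limma adjusted p = 0.000149), Egr2 was at least 63.4-fold lower and Fos was at 4.82, 4.35 and 5.08 against 10.26 and 8.82. Fosb, a sister of Fos in the AP-1 dimer, was at least 10.1-fold lower. The median of the list was -2.55. The share over all genes was 16.4% lower and 17.5% higher. Of 21 genes of endoplasmic reticulum stress 5 were lower (4 to 6) and none higher, led by the stress regulator Nupr1 (difference -5.29).

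Glycolysis genes were lower in 8 of 15 cases (7 to 8 with any 1 array left out) and higher in 1, the glucose transporter Slc2a3 already named. Ldha, which turns pyruvate into lactate, was at 6.37, 6.90 and 6.74 in SCNT Aph- embryos against 10.91 and 11.18 in cumulus cells (difference -4.37, SE 0.66, limma adjusted p = 0.000742). Hexokinase Hk2 did not pass the test, with 12.80, 12.01 and 12.37 against 13.02 and 11.98 in cumulus cells, and neither did Gapdh (difference -0.42). Beside the counts of the next lists, the shares over all genes were 17.5% higher and 16.4% lower. Of 18 cholesterol synthesis genes 4 were higher (1 to 3) and 5 lower (3 to 5), and of 35 lysosome genes 10 were higher (4 to 11) and 8 lower (5 to 8). Class I antigen presentation was lower in 6 of 10 genes (4 to 6), with B2m, its light chain, at 7.29, 7.92 and 8.31 against 10.24 and 9.99 in cumulus cells (difference -2.28, limma adjusted p = 0.00484).

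Markers of blood and immune cells moved with the cumulus signature. Of 13 measured, 8 were lower in SCNT Aph- embryos (5 to 10 with any 1 array left out) and none higher, and their summed level was 614 to 1595 in SCNT Aph- embryos against 6920 and 7737 in cumulus cells. The lysozyme Lyz2 of macrophages was at 4.71, 4.61 and 4.25 against 10.69 and 9.96 in cumulus cells, at least 37.9-fold lower, and Lyz1 was at least 83.5-fold lower. The macrophage genes Cd14, Cd74, C1qb, Tyrobp and Fcer1g and the leukocyte antigen Cd52 were all undetected on the 3 SCNT arrays, while Laptm5 and the haemoglobin gene Hba-a1 were detected on all of them. Over the 13 the median difference was -1.23, or -0.44 at the bounds, and 7 were detected on both cumulus arrays. Without cumulus replicate 2 the differences were -0.34 for C1qb, -0.54 for Tyrobp and -0.53 for Fcer1g. Without cumulus replicate 1 that of Cd74 was -0.50. The calls of C1qb and Cd74 were lost without any 1 of the 3 SCNT arrays, and that of Tyrobp without SCNT replicate 3. In a fit of the 5 arrays alone none of C1qb, Cd74 and Tyrobp was called. How far blood and immune cells in the cumulus pools add to the genes lower in SCNT Aph- embryos was not tested. The share lower over all genes was 16.4%. Of 7 markers of vessels and theca cells 1 was lower (none with any 1 array left out) and none higher, with summed levels of 204 to 290 in SCNT Aph- embryos against 221 and 243 in cumulus cells.

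**Figure D4:**
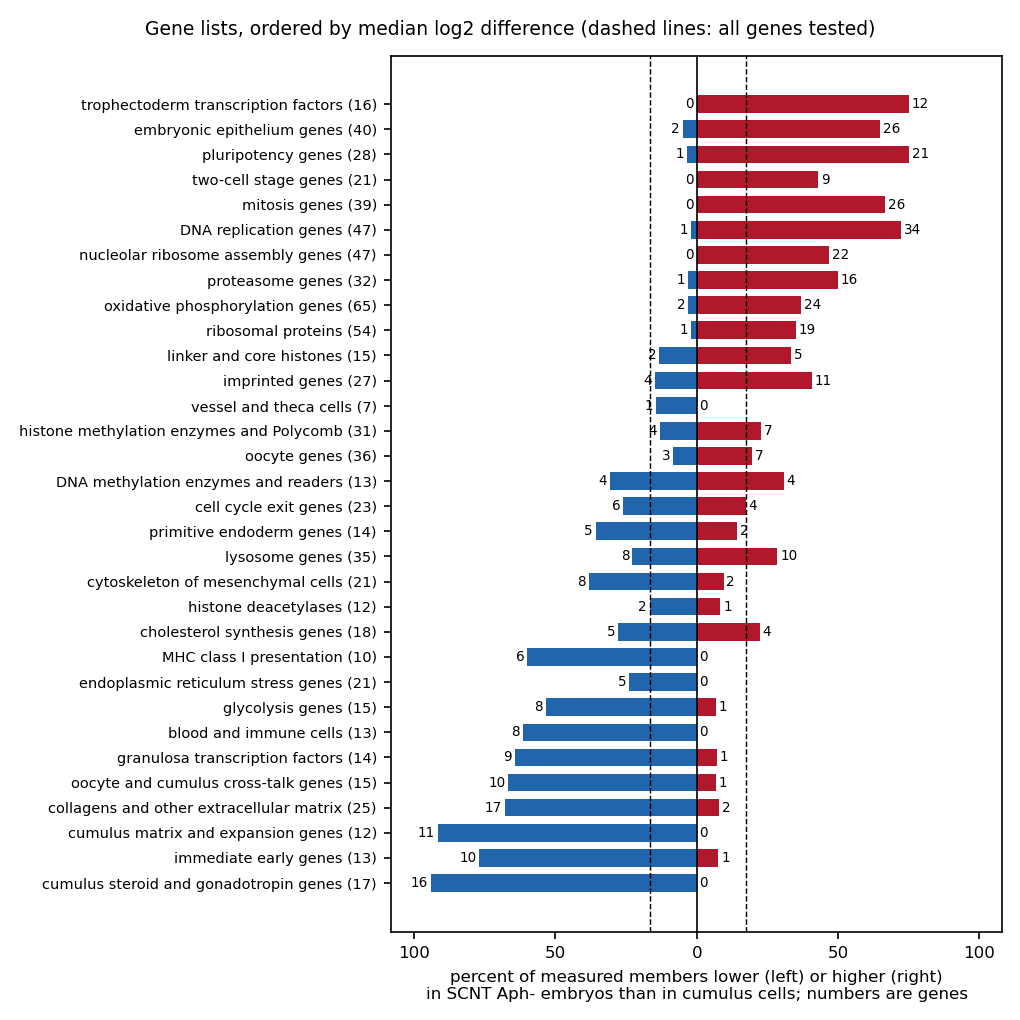
Percent of the measured members (in brackets) of each of 32 gene lists that were lower (blue, left) or higher (red, right) in SCNT Aph- embryos than in cumulus cells, ordered by median log2 difference. Dashed lines mark the shares over all 9787 genes, 16.4% lower and 17.5% higher.

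Fertilized Aph- embryos were set beside the cloned embryos. The limma contrast of SCNT Aph- minus fertilized Aph- embryos called 55 of the 9787 genes (0.562%), 16 higher (0.163%) and 39 lower (0.398%). It shares the SCNT arrays with the comparison against cumulus cells, so values are given side by side. For the 17 steroid genes the median difference from fertilized embryos was 0.03 and none was called, against -3.02 and 16 lower in the comparison with cumulus cells. The named genes in the next sentences were chosen after their values were seen.

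Of the 1606 genes lower than in cumulus cells, 3 were called higher and 6 lower than in fertilized embryos. The genes named next lay between their levels in cumulus cells and in fertilized embryos. Mgst2, a glutathione transferase of lipid mediators, was at 9.45, 9.51 and 9.95 in SCNT Aph- embryos, against 10.58 and 10.89 in cumulus cells and 6.19, 5.49 and 7.21 in fertilized Aph- embryos. It was called against fertilized embryos (difference 3.34, limma adjusted p = 0.0159) and not against cumulus cells (-1.10, limma adjusted p = 0.120), although in a fit of the 5 arrays alone it was (adjusted p = 0.0169). Lgals3, a galectin, was at 11.17, 11.18 and 11.31, against 11.85 and 11.86 in cumulus cells and 10.05, 9.50 and 9.31 in fertilized embryos, and differed from the fertilized embryos by 1.60 (limma adjusted p = 0.0211). Against cumulus cells Lgals3 was not called (-0.63, limma adjusted p = 0.0919), although in a limma fit of the 5 arrays alone it was (adjusted p = 0.0307). Zfp36, an immediate early gene that destabilizes mRNAs, was at 7.58, 7.63 and 7.90, against 10.09 and 10.17 in cumulus cells and 6.56, 6.56 and 6.67 in fertilized embryos. It was lower than in cumulus cells (-2.43) and higher than in fertilized embryos (1.10, limma adjusted p = 0.0399).

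Other genes were below fertilized embryos, and so were their levels in cumulus cells. Sox17 was at 4.21, 4.21 and 4.25 in SCNT Aph- embryos, against 4.24 and 4.26 in cumulus cells and 7.23, 8.04 and 7.05 in fertilized Aph- embryos (difference from fertilized -3.22, limma adjusted p = 0.000864). Pdgfra, the receptor of primitive endoderm cells, was at 5.36, 6.61 and 5.28, against 4.56 and 4.96 in cumulus cells and 8.29, 8.29 and 7.76 in fertilized embryos (-2.36, limma adjusted p = 0.0211). The water channel Aqp8 was at 4.98, 4.87 and 4.43, against 4.21 and 4.23 in cumulus cells and 7.35, 7.43 and 7.36 in fertilized embryos (-2.62). On the X chromosome Magea5, a cancer-testis antigen gene, was at 4.29, 4.31 and 4.21, against 4.22 and 4.25 in cumulus cells and 7.63, 7.27 and 6.72 in fertilized embryos (-2.94, limma adjusted p = 0.000717). The X-linked lymphocyte-regulated gene Xlr4a was at 6.19, 5.62 and 6.35, against 7.24 and 7.41 in cumulus cells and 11.41, 11.47 and 11.36 in fertilized embryos (-5.36, limma adjusted p = 0.000125).

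Called genes were also counted by chromosome. SCNT Aph- embryos had higher levels of 33 (10.1%) and lower levels of 84 (25.8%) of the 326 tested genes of the X chromosome, against 1679 (17.8%) and 1521 (16.1%) of the 9451 autosomal genes. Among the 20 chromosomes the X had the lowest share of higher and the highest share of lower genes. The nearest autosomes were chromosome 18 with 10.7% higher and chromosome 3 with 20.4% lower. The median difference was -0.08 over X-linked genes, against 0.04 over autosomal genes. Of the 39 genes lower than in fertilized embryos, 10 were X-linked. Xist levels in fertilized Aph- embryos averaged 8.16, below all 3 SCNT Aph- arrays, but Xist was not among the genes called against fertilized embryos. These shares describe the chromosomes and carry no test, as neighbouring genes are not independent, and the sex of the embryos in a pool was not used. Cumulus cells come from females, so the cloned embryos are female, whereas embryos made with sperm can be of either sex. Any difference of Xist or X-linked genes from fertilized embryos therefore cannot be told apart from a difference in sex.

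**Figure D5:**
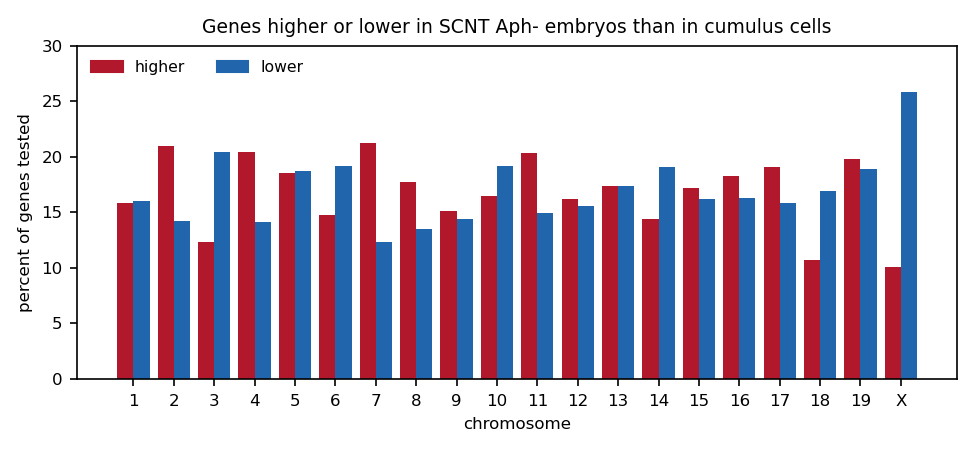
Percent of the tested genes of each chromosome (horizontal axis) that were higher (red) or lower (blue) in SCNT Aph- embryos than in cumulus cells. The X chromosome has 10.1% higher and 25.8% lower.

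The spread among pools was set beside the size of the differences. The median range over the 3 SCNT arrays was 0.45 over all genes, for which the median size of the difference was 0.69. That range was 0.49 over genes called higher and 0.40 over genes called lower, for which the median sizes of the difference were 1.72 and 1.92. Between the 2 cumulus arrays the median range was 0.36 over all genes, 0.30 over genes called higher and 0.51 over genes called lower. Wider ranges over the SCNT arrays were seen for Cdkn1c, Egr1, Zscan4c and Tcstv3, whose values stand above.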

How the data were processed

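Bead intensities of 13 arrays with a detection p-value per probe were deposited by the authors, who exported them from BeadStudio 3.2 without normalization. The authors also deposited a log2 table, background-adjusted and quantile normalized, which served as an alternative. The submitters' processing notes further name RMA and lumi. The sources differ on the chip (Mouse WG6 v2 in the text, MouseRef-8 v2 in the platform annotation) and on the amplification kit.

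Intensities were background-corrected, quantile normalized and log2-transformed with neqc (limma 3.58.1, R 4.3.3, offset 16). Tests used probes that carry a symbol and that any of the arrays detected (p-value under 0.01). Genes with several such probes were represented by the brightest, which left 9787 of 16593 genes. Of 25697 probes 1719 had no symbol. A linear model of 6 groups over all 13 arrays (7 residual degrees of freedom) was tested with limma's moderated test, adjusted by the Benjamini-Hochberg method. Where no array of a group detected a gene, its fold is a lower bound against the higher of that group's lowest detected signal and its own level. The procedure was tested on simulated data. A gene that was not called is not shown to be equal between the groups.

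Genes were named by rule, namely the 15 largest differences per direction, up to 4 members per list and direction, and a set of key genes. The members and the 32 lists were chosen with earlier results of these data known. Named outside the rule, after their values were seen, were Klf4, Klf5, L1td1, Esrrb, Tbx3, Gata2, Ovol2, Ets2, Id2, Yap1, Cldn4, Cdh1, Sox17, Gdf9, Bmp15, Mos, Zscan4c, Fdx1, Amhr2, Nr5a2, Foxl2, Sdc4, Npr2, Gja1, Hk2, Gapdh, Laptm5, Hba-a1, C1qb, Cd74, Tyrobp, Fcer1g and the genes set beside fertilized embryos. A check of promoter base composition was void, because fewer than the required share of genes called lower had a window. Slide numbers are not given in the sources used here, so slides could not be tested as batches.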

Additional observations from a re-analysis of the deposited data

How the results depend on the processing

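Across the other settings tried on all 5 arrays the calls ran from 1527 higher (a 2-fold minimum added) and 1384 lower (7915 genes detected on at least 3 arrays) to 2005 and 1818 (normalization of the 5 arrays alone). Over 3752 repeats of single named genes, 245 lost and 14 gained a call, and no called gene among them changed sign. Over all genes, 8 called genes changed sign with the mean of all probes, of which 1 was called in the opposite direction, and 5 changed sign without the detection filter. Scaling to the 75th percentile moved the median of all genes to 0.30 and gave 1968 higher and 1477 lower (57.1% higher among calls, against 51.6%). With 1 array left out the counts ran from 1137 to 1468 higher and from 1268 to 1384 lower, and the genes detected only in SCNT Aph- embryos or only in cumulus cells ran from 484 to 1232 and from 528 to 1239. The lowest count of higher genes came without cumulus replicate 1, the dimmest of the 5 arrays. The cholesterol synthesis list turned from a median of -0.30 to 0.16 under 75th percentile scaling, which shifts all genes upward. No paired analysis was possible because the labels number the SCNT and cumulus arrays separately and nothing ties an SCNT pool to a cumulus pool. Dim signal near background limits all genes with only a bound.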
